A study of Mus musculus with 8 samples.

Results

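*Adra1b*, which encodes the α1B-adrenergic receptor, and 5 further genes of hormone-stimulated glycogen breakdown were examined in livers with and without hepatocyte RBFOX2. The other genes are *Adra1a*, *Avpr1a* and *Gcgr*, which encode receptors, and *Itpr1* and *Itpr2*, which encode calcium channels. These 6 genes were taken by symbol from the 46078 gene identifiers counted, and all 6 were among the 13856 genes with enough counts to be tested. The list was chosen on measured values: *Adra1b* was picked because it was lower in livers without RBFOX2 in this same comparison, where it was among the 10 of 13844 genes (0.0722%) that the DESeq2 test called at an adjusted *P* of at most 0.05. The other 5 genes were added as its relatives and partners. The values of the 6 genes below are therefore a description, with no *P*.

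Livers of 4 LWT and 4 LΔRbfox2 mice were compared, with 1 RNA-seq library per liver. LWT mice were *Alb_cre*- *Rbfox2* LoxP/LoxP and LΔRbfox2 mice were *Alb_cre*+ *Rbfox2* LoxP/LoxP, so both groups carried the floxed alleles and only the latter carried Cre, driven by the albumin promoter and hence active in hepatocytes. All livers came from mice on a control chow diet, for 12 weeks according to the labels (the study's methods give a longer time), and were taken after 16 h of fasting. The age of each animal was not in the labels. Whole liver was measured, so non-hepatocyte RNA, in which *Rbfox2* was not targeted, is part of each value, and fewer cells of a type cannot be told apart from less RNA per cell.

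In hepatocytes, glycogen is broken down when hormones switch on glycogen phosphorylase. Adrenaline and noradrenaline act on α1-adrenergic receptors and vasopressin acts on the V1a receptor, both of which use Gq proteins and phospholipase C to make inositol trisphosphate (IP3), and IP3 opens the IP3 receptors of the endoplasmic reticulum to release calcium. Glucagon acts on its own receptor through Gs, adenylyl cyclase and protein kinase A. Both routes meet at phosphorylase kinase, which calcium and protein kinase A activate.

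RBFOX2 is a splicing factor that recognizes (U)GCAUG in RNA, so the annotated mRNAs of the 6 genes were searched for TGCATG on the sense strand. Positions below are those of the 30-base windows shown, with 12 bases on each side of the motif. *Adra1b* held 1 match, in its coding sequence in the window chr11:43776161-43776190 on the minus strand of GRCm38. *Itpr1* held 3, all in coding sequence on the plus strand, in the windows chr6:108386705-108386734, chr6:108386769-108386798 and chr6:108393967-108393996. *Itpr2* held 2 in coding sequence on the minus strand, in the windows chr6:146234025-146234054 and chr6:146173271-146173300, and 1 in its 3′ UTR, which is not shown. *Adra1a*, *Avpr1a* and *Gcgr* held none. The windows in coding exons are shown 5′ to 3′ with the motif in capitals because they locate the letters that RBFOX2 recognizes in the mature transcripts of the gene that chose the list and of the IP3 receptors.
Adra1b: gacagtggcagcTGCATGagcggcagccag
Itpr1 first: ctcattctccgcTGCATGtctgacgagaac
Itpr1 second: tcatgcttcacaTGCATGtggaccgagatc
Itpr1 last: tccacttgacaaTGCATGactacccacccc
Itpr2 first: tctaccagcagtTGCATGaacaaaaaaagt
Itpr2 second: tatgtcctggttTGCATGcttggcctcttt

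Such matches are common. Of 12143 annotated protein-coding transcripts of tested genes, 55.6% held TGCATG, and of the 1579 transcripts within 10% of the length of the *Adra1b* transcript, 58.3% did. Among transcripts as long as those of *Itpr1* and *Itpr2*, 92.9% and 92.3% held at least 1 match. The shorter GCATG, which every TGCATG contains, occurred 5 times in *Adra1b*, 6 times in *Adra1a*, 2 times in *Gcgr*, 3 times in *Avpr1a*, 5 times in *Itpr1* and 8 times in *Itpr2*, and 88.6% of the 12143 transcripts held it. Introns, where RBFOX2 often binds to act on splicing, were not searched.

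*Rbfox2*, the targeted gene, checks the labels. In livers 1 to 4 it was at 17.1, 10.4, 11.4 and 18.3 CPM (counts scaled to library size with TMM factors) in LWT, and at 4.61, 6.09, 2.24 and 3.19 CPM in LΔRbfox2. No LΔRbfox2 value reached the lowest LWT value. Its relative *Rbfox1* had 0 counts in every liver, and *Rbfox3* was low, with 7 to 18 counts a liver. *Rbfox3* was at 0.281 to 0.414 CPM in LWT and at 0.172 to 0.217 CPM in LΔRbfox2, without overlap, with a log2 fold change of -0.80 (unadjusted *P* = 0.0241, adjusted *P* = 0.504, edgeR), or -0.53 with a correction for GC content and gene length.

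The libraries held 37482458 to 56177588 counts. LΔRbfox2 livers 3 and 4 stood apart by their TMM factors, 0.724 and 0.7758 against 1.022 to 1.141 in the other 6 livers. Genes of the major urinary protein family (*Mup*) took 43.8% and 37.9% of their counts, against 21.6% to 37.3% elsewhere, so by this share liver 4 was close to LWT liver 1. On the first principal component of log2 CPM, which held 54.1% of the variance, LΔRbfox2 livers 3 and 4 were at 0.39 and 0.47. LWT livers 1 and 4 lay as far out at the other end, at -0.5 and -0.46. Values without LΔRbfox2 livers 3 and 4 are given below, an alternative chosen after seeing the data. All 7 hepatocyte markers were tested and none was called by edgeR at an adjusted *P* of at most 0.05, nor was any of all 13856 genes tested. At an unadjusted *P* under 0.05 there were 0 of the 7 markers, against 9.79% of all genes.

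*Adra1b* (ENSMUSG00000050541, chr11:43774606-43901210, minus strand, GRCm38) was lower in every LΔRbfox2 liver. In LWT livers 1 to 4 its mRNA was at 20.7, 15.6, 15.2 and 17.3 CPM, from 792, 778, 731 and 751 counts. In LΔRbfox2 livers it was at 10.7, 8.7, 10.3 and 10.3 CPM, from 470, 557, 354 and 334 counts. All 4 LΔRbfox2 livers lay under all 4 LWT livers, with a gap from 10.7 to 15.2 CPM, and the spread in LΔRbfox2 was narrow. The means were 17.2 ± 2.49 CPM (SD, n = 4) and 10.02 ± 0.902 CPM (SD, n = 4), so the LΔRbfox2 mean was 58.2% of the LWT mean. The log2 fold change from LWT to LΔRbfox2 was -0.78 ± 0.17 (SE from limma-voom). Over all 13856 genes tested, 1.23% lay lower without overlap and 1.05% lay higher without overlap, and since *Adra1b* was picked on this comparison nothing is read from its place among them.

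The value for *Adra1b* moved little between settings. Without LΔRbfox2 livers 3 and 4 the log2 fold change was -0.84, and it was -0.75 once each library was corrected for GC content and gene length. Across 19 alternative settings it ranged from -0.84 to -0.71. These settings refit livers on which *Adra1b* was picked, so nothing is read from the narrow range.

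*Adra1a* encodes the α1A-adrenergic receptor, which signals through the same Gq route. In LWT livers 1 to 4 it was at 2.43, 2.61, 2.6 and 2.79 CPM, from 93 to 130 counts. In LΔRbfox2 livers it was at 1.76, 2.48, 1.98 and 2.07 CPM, from 67 to 159 counts. The groups overlapped only through LΔRbfox2 liver 2, at 2.48 CPM, which lay above LWT liver 1, at 2.43 CPM. From LWT to LΔRbfox2 the log2 fold change was -0.33 ± 0.20 (SE), and it was -0.16 after the correction for GC content and gene length. The α1D receptor gene *Adra1d* had 0 counts in all 8 livers, where 3 counts would be 0.0468 to 0.0929 CPM, a floor for counting error only.

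Per kilobase of merged exons, most α1 receptor mRNA was *Adra1b*. Its share of the summed RPKM (CPM per kilobase) of the α1 genes was 95.6%, 93.9%, 93.8% and 94.1% in LWT livers 1 to 4 and 94.0%, 90.0%, 93.1% and 92.8% in LΔRbfox2 livers. The ranges of this share overlapped between genotypes, with LΔRbfox2 liver 2 the lowest. The share depends on the length used. With the longest annotated transcript, *Adra1b* and *Adra1a* had means of 5.17 and 0.609 RPKM in LWT and 3.01 and 0.484 RPKM in LΔRbfox2, a lower share of *Adra1b*.

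*Avpr1a* encodes the V1a vasopressin receptor. It was at 12.1, 9.18, 17.2 and 8.27 CPM in LWT livers 1 to 4 and at 10.8, 8.24, 9.28 and 24.4 CPM in LΔRbfox2 livers. LΔRbfox2 liver 4 was the highest of all 8, and the other 3 LΔRbfox2 livers lay within or just under the LWT range. A log2 fold change of 0.17 ± 0.35 (SE) resulted, and its sign depended on the setting. It was -0.3 without LΔRbfox2 liver 4, -0.33 without LΔRbfox2 livers 3 and 4, and -0.05 with the replicate block and the correction for GC content and gene length together. The other vasopressin and oxytocin receptor genes *Avpr1b*, *Avpr2* and *Oxtr* had 0 counts in every liver.

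*Gcgr* encodes the glucagon receptor, which acts through cAMP. It was at 183, 143, 118 and 158 CPM in LWT livers 1 to 4 and at 127, 144, 149 and 142 CPM in LΔRbfox2 livers. The LΔRbfox2 values lay inside the LWT range. This gave a log2 fold change of -0.10 ± 0.17 (SE), smaller than its error. Set against *Gcgr* in the same liver, *Adra1b* was lower in LΔRbfox2: there were 11.3, 10.9, 12.9 and 10.9 CPM of *Adra1b* per 100 CPM of *Gcgr* in LWT livers 1 to 4, and 8.47, 6.04, 6.9 and 7.27 in LΔRbfox2 livers. This ratio does not depend on how the libraries were scaled, and its ranges did not overlap. It uses the *Adra1b* values that chose the list and is a description too.

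**Figure D1:**
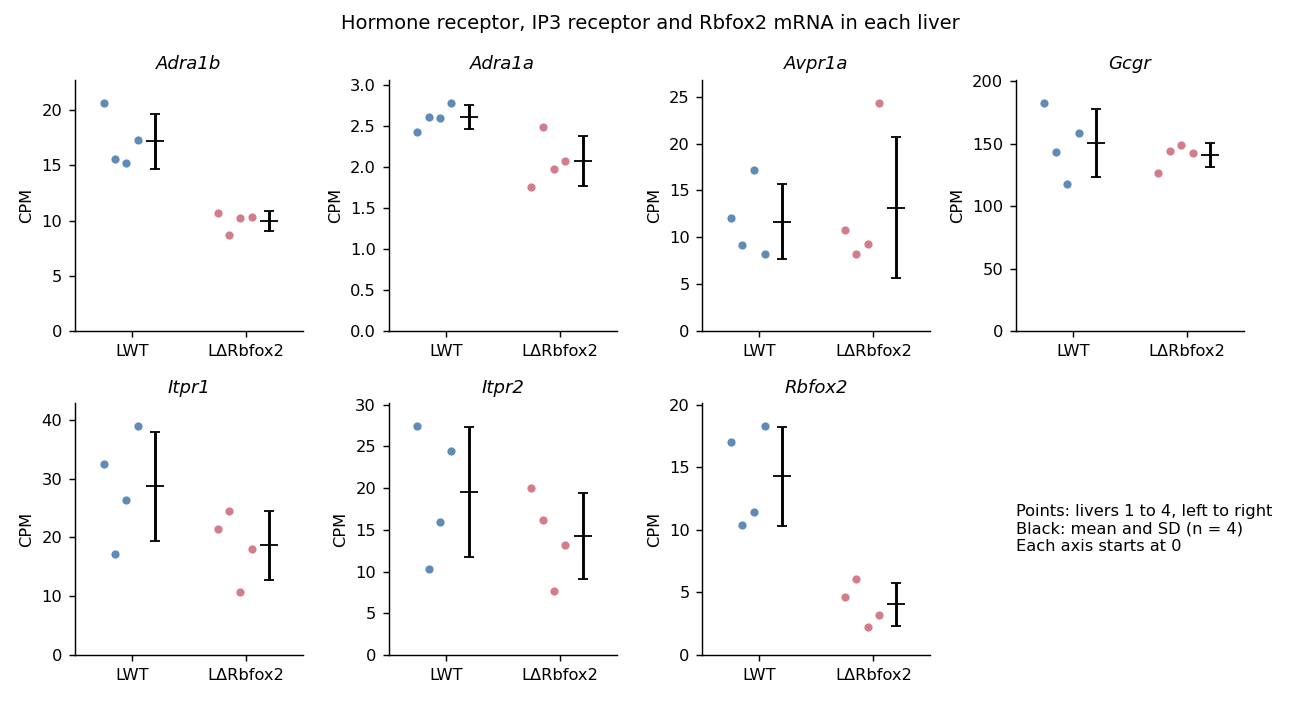
CPM of the 6 genes and of *Rbfox2* in each liver, with livers 1 to 4 of each genotype from left to right (LWT blue, LΔRbfox2 red), the mean and SD in black (n = 4), and every axis starting at 0. The groups are apart in *Adra1b* and *Rbfox2*, and overlap in *Adra1a*, *Avpr1a*, *Gcgr*, *Itpr1* and *Itpr2*, with 1 LΔRbfox2 liver at 24.4 CPM of *Avpr1a*.

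The IP3 receptors had lower means in LΔRbfox2 livers and wide, overlapping ranges. *Itpr1* encodes the type 1 channel. It was at 32.5, 17.1, 26.3 and 38.9 CPM in LWT livers 1 to 4 and at 21.4, 24.4, 10.7 and 18.1 CPM in LΔRbfox2 livers. Only LΔRbfox2 liver 3 lay under every LWT liver. The log2 fold change was -0.62 ± 0.31 (SE). It was -0.32 with the correction for GC content and gene length and -0.34 without LΔRbfox2 livers 3 and 4. Genes annotated on the opposite strand, *Gm44040* and *Gm44101*, overlap *Itpr1*, and the strand setting of the counting is not given in the sources used here, so reads from them cannot be told apart.

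*Itpr2* encodes the type 2 channel, known as the main IP3 receptor of hepatocytes. It was at 27.4, 10.3, 15.9 and 24.5 CPM in LWT livers 1 to 4 and at 19.96, 16.2, 7.68 and 13.2 CPM in LΔRbfox2 livers. Its pattern over livers was like that of *Itpr1*, with LWT livers 1 and 4 high and LΔRbfox2 liver 3 lowest. The log2 fold change was -0.45 ± 0.36 (SE), and it was -0.15 with the correction and -0.12 without LΔRbfox2 livers 3 and 4. LWT livers 1 and 4 and LΔRbfox2 liver 3 are also livers near the ends of the first principal component. LΔRbfox2 liver 4 lay further out than liver 3 (0.47 against 0.39), yet above LWT liver 2 in both genes. The part of that component in the IP3 receptor values was not tested.

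The type 3 channel gene *Itpr3* was at 0.221 to 0.875 CPM in LWT and at 0.145 to 0.708 CPM in LΔRbfox2. *Itpr1* made up 47.7% to 56.4% of the summed RPKM of the IP3 receptor genes in LWT livers and 45.0% to 53.6% in LΔRbfox2 livers. These shares of type 1 mRNA overlapped between genotypes. They also depend on the length used. With the longest annotated transcript, *Itpr1* and *Itpr2* had means of 2.91 and 1.67 RPKM in LWT and 1.89 and 1.22 RPKM in LΔRbfox2, a higher share of *Itpr1*.

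Levels of different genes were compared per length. In LWT livers *Gcgr* was the highest, at 57.5 ± 10.3 RPKM (SD, n = 4), followed by *Adra1b* at 5.09 ± 0.737 and *Avpr1a* at 4.37 ± 1.5. *Itpr1* was at 1.57 ± 0.507 RPKM, *Itpr2* at 1.32 ± 0.529 and *Adra1a* at 0.299 ± 0.0167. The ranges of *Adra1b* and *Avpr1a* overlapped, and so did those of *Itpr1* and *Itpr2*, so neither neighbour in these pairs differed beyond its spread, whereas the other neighbours in the order were apart in all 4 livers.

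In LΔRbfox2 livers the mean of *Avpr1a* was above that of *Adra1b*. *Gcgr* was at 53.6 ± 3.68 RPKM (SD, n = 4), *Avpr1a* at 4.93 ± 2.82 and *Adra1b* at 2.96 ± 0.267. *Avpr1a* was above *Adra1b* in 4 of 4 LΔRbfox2 livers, and *Adra1b* was above *Avpr1a* in 3 of 4 LWT livers. The ranges of these genes overlapped in LΔRbfox2 too, with *Adra1b* at 2.57 to 3.17 RPKM and *Avpr1a* at 3.09 to 9.13 RPKM, the highest being liver 4. The other levels were 1.02 ± 0.321 RPKM for *Itpr1*, 0.963 ± 0.351 for *Itpr2* and 0.238 ± 0.0347 for *Adra1a*. *Gcgr* exceeded *Adra1b* 10.01 to 11.85 times in LWT livers and 15.2 to 21.4 times in LΔRbfox2 livers. With the longest annotated transcript as the length, *Adra1a* was at 0.609 RPKM in LWT and *Itpr1* at 2.91, and the order of the means in LWT was the same. With that length *Itpr1* was above *Avpr1a* in LWT liver 4, so these neighbours were no longer apart in every liver.

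**Figure D2:**
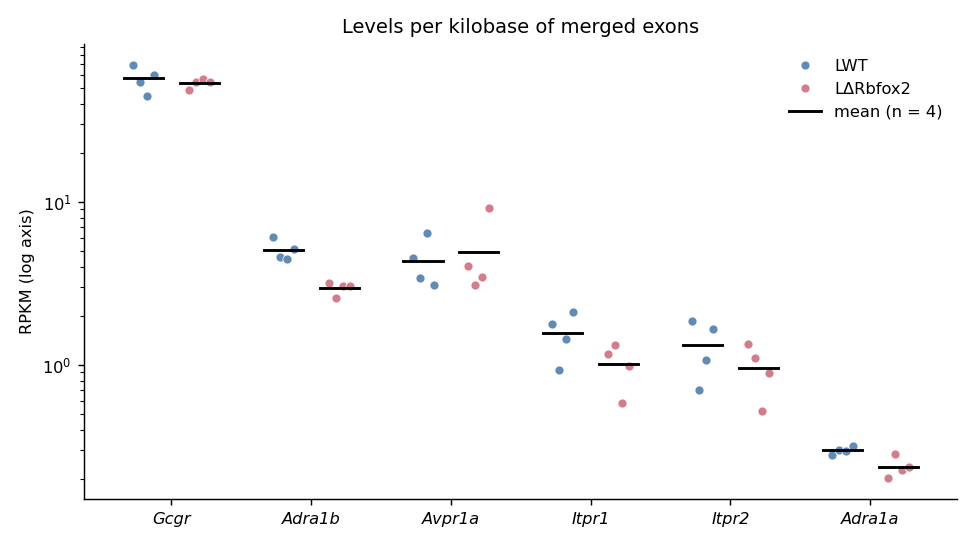
RPKM of each gene in each liver on a log axis, with LWT in blue, LΔRbfox2 in red and black lines at the means (n = 4). *Gcgr* lies above the other genes in every liver, *Adra1b* and *Avpr1a* share a level in LWT, and the *Adra1b* mean is under that of *Avpr1a* in LΔRbfox2 (2.96 against 4.93 RPKM), with ranges that overlap.

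The range of each difference over the alternatives is a description. The settings refit the livers on which *Adra1b* was picked for its change, so its range is not compared with those of the other genes. In *Adra1a* it ran from -0.43 to -0.16, in *Gcgr* from -0.2 to -0.02, in *Itpr1* from -0.8 to -0.32 and in *Itpr2* from -0.66 to -0.12. *Avpr1a* ran from -0.33 to 0.42. The sign was kept under all 19 alternatives in the 5 genes other than *Avpr1a*, in which it changed under 3.

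**Figure D3:**
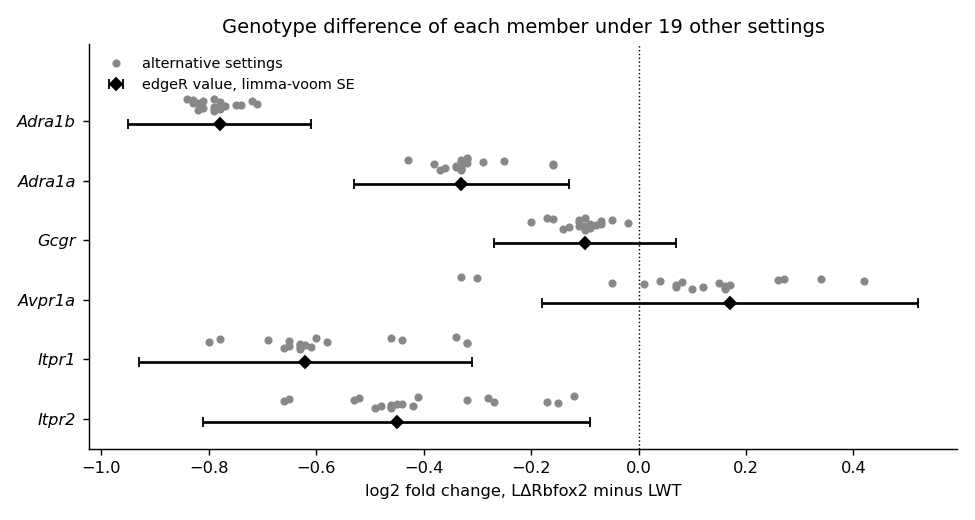
Log2 fold change from LWT to LΔRbfox2 for each gene, with the edgeR value and its limma-voom standard error in black and the value under each of 19 alternative settings in grey, and a dotted line at 0. The grey points of *Adra1b*, which was picked on these livers, stay between -0.84 and -0.71, and those of *Avpr1a* cross 0.

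Of the rest of the pathway, 168 genes in 11 role groups were listed, of which 141 were tested. With edgeR's quasi-likelihood test and Benjamini-Hochberg adjustment over all genes tested, 0 of the 141 passed an adjusted *P* of at most 0.05, and neither did any of all 13856 genes (0, that is 0%). At an unadjusted *P* under 0.05, 6 pathway genes were higher and 6 were lower in LΔRbfox2, together 8.51% of those tested, against 9.79% of all genes (7.95% higher and 1.83% lower). With the DESeq2 test 0 pathway genes passed the adjusted threshold, against 10 of 13844 genes (0.0722%). By that test 13 of the 141 had an unadjusted *P* under 0.05, against 1565 of 13856 genes. The median log2 fold change of the pathway genes was -0.16, against -0.02 over all genes tested, and 100 of the 141 (70.9%) lay under 0, against 51.6% of all genes. With the correction for GC content and gene length the medians were -0.06 and -0.03. With both directions pooled the share of pathway genes at an unadjusted *P* under 0.05 was near that of all genes, but all genes split into 1102 higher and 254 lower, and the pathway genes into 6 and 6. The split of all genes depended on the setting. It was 82 higher and 89 lower without LΔRbfox2 livers 3 and 4, and 179 higher and 203 lower with the replicate block and the correction together. The split of the pathway genes depended on the scaling, with 3 higher and 9 lower under upper-quartile factors and 4 higher and 8 lower under DESeq2 size factors. All 12 pathway genes had an adjusted *P* of 0.504. Without LΔRbfox2 livers 3 and 4 the 12 pathway genes became 1, and all genes went from 1356 of 13856 to 171 of 14602. Without LΔRbfox2 liver 2 the 12 became 25, and all genes went to 3475 of 14005. The filter was applied anew in each, so the number of pathway genes tested can differ from 141.

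Among the other adrenergic receptors, 4 of 7 were tested and only *Adrb3*, the β3 receptor best known from fat, had an unadjusted *P* under 0.05. Over all genes tested, 9.79% did, and 1.83% were lower. It was at 11.2, 0.783, 1.27 and 6.61 CPM in LWT livers 1 to 4 and at 1.14, 1.83, 0.902 and 0.495 CPM in LΔRbfox2 livers. LWT livers 1 and 4 were high and the other 2 LWT livers lay among the LΔRbfox2 values. The log2 fold change was -2.15 ± 0.86 (SE) (unadjusted *P* = 0.019, adjusted *P* = 0.504, edgeR), and *Gm45470* overlaps the gene on the opposite strand.

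Of 18 other hormone and nucleotide receptors, 9 were tested and 0 had an unadjusted *P* under 0.05, where 9.79% of all genes did. The angiotensin receptor gene *Agtr1a*, another Gq-coupled receptor, had the highest level per length, at 17.0 ± 1.44 RPKM (SD, n = 4) in LWT and 19.4 ± 3.39 in LΔRbfox2. Its log2 fold change was 0.19 ± 0.17 (SE), and 0.06 with the correction for GC content and gene length.

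Among receptor partners and proteins of desensitization, genes were found in both directions. *Arrb2*, which encodes β-arrestin 2, a protein that binds activated receptors, was at 7.89, 6.03, 6.72 and 6.84 CPM in LWT livers 1 to 4 and at 5.92, 5.25, 5.15 and 5.26 CPM in LΔRbfox2 livers. The groups did not overlap, by 6.03 against 5.92 CPM, and the log2 fold change was -0.35 ± 0.17 (SE) (unadjusted *P* = 0.0618, adjusted *P* = 0.511, edgeR). *Arrb1*, for β-arrestin 1, was at 4.58 ± 0.662 CPM (SD, n = 4) in LWT and 2.92 ± 1.03 in LΔRbfox2, with a log2 fold change of -0.64 that was -0.39 with the correction for GC content and gene length. *Rgs3*, which speeds the shut-off of Gi and Gq proteins, had a log2 fold change of -0.82, with LWT liver 2 at 7.61 CPM and the others between 2.01 and 4.23. *Ramp1*, a partner of calcitonin-type receptors, had one of 0.92, from a mean of 1.35 to a mean of 2.56 CPM. *Rgs16*, the highest of this group per length, was at 8.11 to 19.5 CPM in LWT and 9.3 to 35.4 CPM in LΔRbfox2. In total 15 of these 16 genes were tested, and 1 was higher and 2 were lower at an unadjusted *P* under 0.05, where 7.95% of all genes were higher and 1.83% lower.

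Of the G protein genes, 1 of 15 had an unadjusted *P* under 0.05, where 9.79% of all genes did. *Gnas*, for Gsα, the highest of the 15 tested G protein genes per length, was at 232 ± 40.5 CPM in LWT and 214 ± 12.0 CPM in LΔRbfox2 (SD, n = 4), and its log2 fold change of -0.12 became 0.24 with the correction for GC content and gene length. *Gng5*, a γ subunit, had a log2 fold change of 0.66, which was 0.30 with that correction. None of 8 tested phospholipase C genes had an unadjusted *P* under 0.05 (0 of 8, against 9.79% of all genes). A log2 fold change under 0 was found in 7 of the 8, and in 51.6% of all genes. The median of the 8 was -0.33, or -0.15 with the correction, against -0.02 and -0.03 over all genes. *Plcg1*, the highest of the 8 per length, had a log2 fold change of -0.35 ± 0.30 (SE), which was -0.10 with the correction.

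On the cAMP side, 16 adenylyl cyclase and phosphodiesterase genes were tested. *Adcy4* was at 1.79 ± 0.55 CPM in LWT and 0.862 ± 0.337 CPM in LΔRbfox2 (SD, n = 4), and *Adcy7* at 0.998 ± 0.554 and 0.404 ± 0.247 CPM. Their log2 fold changes were -1.03 and -1.25, and their ranges overlapped. *Pde3b*, the cAMP-degrading enzyme that insulin activates and the highest of this group per length, was at 54.1 ± 4.61 and 53.8 ± 9.12 CPM, a log2 fold change of -0.01. Of 16 tested genes for protein kinase A, Epac and CREB, 0 had an unadjusted *P* under 0.05, where 9.79% of all genes did. *Prkar1a*, a regulatory subunit of protein kinase A, was higher without overlap, at 73.6 to 88.8 CPM in LWT and 92.5 to 102 CPM in LΔRbfox2, with a log2 fold change of 0.21 (unadjusted *P* = 0.166, adjusted *P* = 0.572, edgeR). Over all genes tested, 1.05% were higher without overlap.

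On the calcium side, *Impa1*, an enzyme that recycles inositol phosphates, was lower without overlap, at 28.8 to 33.2 CPM in LWT and 18.7 to 28.1 CPM in LΔRbfox2, with a log2 fold change of -0.31 (unadjusted *P* = 0.0966, adjusted *P* = 0.531, edgeR). *Ahcyl1*, whose product binds IP3 receptors, was the highest of its group per length, at 66.6 ± 13.4 and 59.8 ± 7.6 CPM (SD, n = 4). Of 14 tested genes of IP3 receptor partners and IP3 metabolism, 0 had an unadjusted *P* under 0.05, where 9.79% of all genes did. Among 22 tested calcium pumps, channels and sensors, *Calm2*, for calmodulin, which is also a subunit of phosphorylase kinase, had a log2 fold change of 0.51 that was 0.05 with the correction. The plasma membrane pump gene *Atp2b2* was lower without overlap, but it had only 4 to 22 counts in any liver. Over all genes tested, 1.23% were lower without overlap. The 8 protein kinase C genes included none at an unadjusted *P* under 0.05 (0 of 8, against 9.79% of all genes). *Prkcz*, the highest of them per length, was at 14.1 ± 2.82 and 11.9 ± 3.44 CPM (SD, n = 4).

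At the end of the pathway, 14 genes of phosphorylase kinase, glycogen phosphorylase and the phosphatase that opposes them were tested. Their median log2 fold change was -0.08, against -0.02 over all genes, and 8 of the 14 lay under 0, where 51.6% of all genes did. *Phkb*, the β subunit of phosphorylase kinase, was at 12.0, 8.66, 8.69 and 13.7 CPM in LWT livers 1 to 4 and at 14.3, 18.8, 15.8 and 14.5 CPM in LΔRbfox2 livers. All LΔRbfox2 livers lay above all LWT livers, and the log2 fold change was 0.56 ± 0.20 (SE) (unadjusted *P* = 0.0194, adjusted *P* = 0.504, edgeR). It was 0.63 with the correction for GC content and gene length. *Ppp1ca* and *Ppp1cc*, catalytic subunits of protein phosphatase 1, which switches phosphorylase off, had log2 fold changes of 0.60 and 0.57 with overlapping ranges, and *Rad9a* overlaps *Ppp1ca* on the opposite strand. *Ppp1r3g*, which targets that phosphatase to glycogen, was at 1.62 to 2.39 CPM in LWT and at 1.24 to 1.62 CPM in LΔRbfox2, ranges that met at 1.62 CPM without overlap, with a log2 fold change of -0.50 (unadjusted *P* = 0.0509, adjusted *P* = 0.504, edgeR). The liver phosphorylase gene *Pygl* was at 129 ± 14.4 CPM in LWT and 117 ± 6.7 CPM in LΔRbfox2 (SD, n = 4), a log2 fold change of -0.14 that was -0.05 with the correction. At an unadjusted *P* under 0.05, 3 of the 14 were higher and 0 lower, where 7.95% of all genes were higher and 1.83% lower. At that unadjusted *P*, 0 of the 141 pathway genes were higher and 2 lower with the replicate block, against 229 higher and 106 lower of 13856 genes. With the block and the correction together, 2 pathway genes were higher and 1 was lower, against 179 higher and 203 lower of the 13856.

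**Figure D4:**
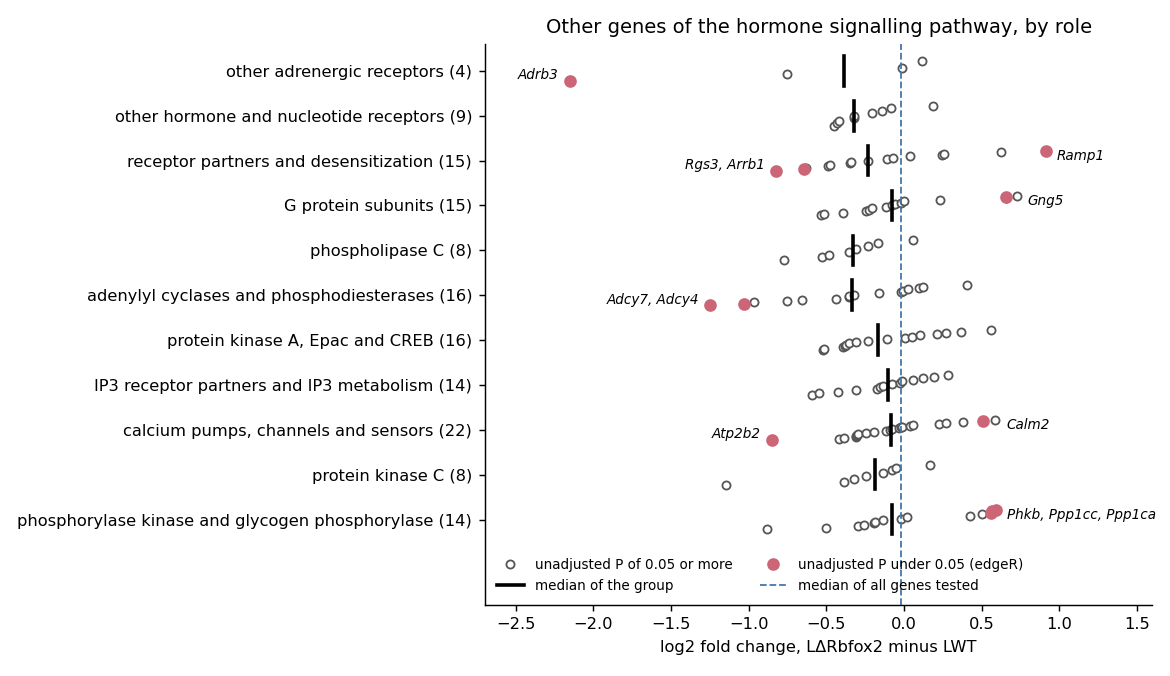
Log2 fold change from LWT to LΔRbfox2 of 141 tested pathway genes by role (number tested in brackets), with filled points at an unadjusted *P* under 0.05 in edgeR, open points for the rest, black bars at group medians and a dashed line at the median of all genes tested. The 12 filled points fall on both sides, 6 higher and 6 lower (3 and 9 with upper-quartile factors), and the black bars lie between -0.38 and -0.08.

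The genes with the pattern most like *Adra1b* were found by Pearson's *r* of log2 CPM over the 8 livers, as a measure of likeness only. These were *Ccl28* (*r* = 0.946), *Creld1* (0.942), *Acsm5* (0.931), *Arrb2* (0.93) and *Smad9* (0.926). *Smad9*, a transcription factor of bone morphogenetic protein signalling, was at 17.7, 13.1, 11.3 and 9.79 CPM in LWT livers 1 to 4 and at 5.62, 6.14, 5.38 and 6.19 CPM in LΔRbfox2 livers. *Acsm5*, an acyl-CoA synthetase, was at 53.0 to 58.8 CPM in LWT and 40.9 to 48.3 CPM in LΔRbfox2. *Creld1* was at 27.5 to 30.3 CPM and 22.7 to 24.1 CPM. *Ccl28*, a chemokine, had 12 to 15 counts in each LWT liver and 3 or 4 in each LΔRbfox2 liver. All 5 share with *Adra1b* a lower level in every LΔRbfox2 liver, which follows from choosing them for their likeness to *Adra1b* over these livers. Nothing is read from it. *Rbfox2* itself ranked 27, at 0.851, and *Adra1a* (0.583), *Itpr1* (0.579), *Itpr2* (0.498), *Gcgr* (0.438) and *Avpr1a* (-0.032) were less like it.

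Within genotypes the likeness was to other genes. By deviations from the genotype means, the 5 most like *Adra1b* were *Gm6377* (*r* = 0.978), *Rpph1* (0.97), *Rec8* (0.959), *Gm23849* (0.956) and *Arl5b* (0.953), over the same 8 livers. *Gm6377*, *Rpph1*, *Rec8* and *Gm23849* had mean levels under 1 CPM in both genotypes. *Arl5b*, a small GTPase, was at 17.9 ± 2.19 CPM in LWT and 15.6 ± 1.48 CPM in LΔRbfox2 (SD, n = 4). By this measure *Rbfox2* had an *r* of 0.072, *Gcgr* 0.625 and *Adra1a* -0.654. These values are over the same 8 libraries for every gene, and an *r* over 8 points is imprecise.

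Markers of other liver cells were read beside these values. Summed Kupffer cell markers were at 65.1 to 113.5 CPM in LWT and 37.3 to 74.1 CPM in LΔRbfox2. Of these 7 markers 2, *Clec4f* and *Csf1r*, were lower at an unadjusted *P* under 0.05, where 1.83% of all genes were lower. Sinusoidal endothelial markers summed to 91.7 to 131 CPM and 73.6 to 106 CPM, and stellate cell markers to 91.5 to 185 CPM and 120 to 164 CPM. In each, 0 of 7 had an unadjusted *P* under 0.05, where 9.79% of all genes did. Smooth muscle markers summed to 2.0 to 3.5 CPM and 2.22 to 4.41 CPM, with *Cnn1* at 3 counts or fewer in every liver. Cholangiocyte markers summed to 14.6 to 25.8 CPM and 16.4 to 60.9 CPM, and lymphocyte markers to at most 0.804 and 1.39 CPM. Every summed range overlapped between genotypes, and the part of these cells in the *Adra1b* difference was not tested.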

How the data were processed

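Livers of 4 LWT and 4 LΔRbfox2 mice were used, with 1 poly(A)-enriched RNA-seq library each. According to the study's methods and processing notes, reads were aligned to GRCm38 with TopHat2 2.0.11 and counted per gene with featureCounts (version and strand setting not given in the sources used here). The authors deposited whole-number counts without normalization for 46078 gene identifiers, of which 45229 matched GENCODE M21. Groups and replicate numbers came from the labels, and 0 columns were left unmatched. The labels do not say that livers came from separate litters or batches, so *P* values measure the spread between these livers. Pairs of libraries of a genotype differed by a chi-square per degree of freedom of at least 106, so none was a copy of another.

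The genotypes were compared with edgeR 4.0.16 (R 4.3.3). Genes were kept by filterByExpr at its default minimum of 10 counts and total of 15, which left 13856, libraries were scaled with TMM factors, and the quasi-likelihood test had genotype as its only term, with Benjamini-Hochberg adjustment over all genes tested. Standard errors came from limma-voom (limma 3.58.1), and log2 CPM used a prior count of 2. RPKM is CPM per kilobase of merged exons. Tests were tried on simulated data first. Motif windows were read from GENCODE M21 transcripts on the sense strand with Python 3.11.15, 1 transcript per gene.

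The members and lists were chosen with earlier results of these data known. Of the pathway list, 26 genes were too low to test and 1, *Itprip*, was not analysed here. Named pathway genes are those with an unadjusted *P* under 0.05, those without overlap between genotypes, and the highest per length in each role group. *Adra1d*, *Avpr1b*, *Avpr2*, *Oxtr*, *Itpr3* and *Pygl* are named outside this rule for their role. For likeness, the 5 genes with the highest *r* are named under each measure. Alternatives were DESeq2 1.42.0 (size factors and test), upper-quartile factors, limma-voom, other filters, robust estimation, a replicate block, a correction for GC content and gene length (lowess, span 0.3), and each liver left out.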

Additional observations from a re-analysis of the deposited data

Results flagged for a closer look

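In groups of 4 livers, 1 value far from the other 3 was looked for in each named gene, by Dixon's critical value for the gap over the range. Of 84 groups examined, 4 held such a value, where chance gives 1 in 20, or 4.2. *Avpr1a* was at 24.4 CPM in LΔRbfox2 liver 4 and at 8.24 to 10.8 CPM in the other LΔRbfox2 livers. *Arrb2* was at 5.92 CPM in LΔRbfox2 liver 1 and at 5.15 to 5.26 CPM in the others. *Rpph1* was at 2.72 CPM in LWT liver 1 and at 0.25 to 0.553 CPM in the others. *Rec8* was at 0.784 CPM in LWT liver 1 and at 0.374 to 0.437 CPM in the others. LWT liver 1 was also the highest LWT liver in *Adra1b*, *Gm6377*, *Gm23849* and *Arl5b*. The likeness of *Rpph1*, *Rec8*, *Gm6377*, *Gm23849* and *Arl5b* to *Adra1b* within genotypes was not computed without that liver.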

How the results depend on the processing

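*Adra1b* kept its direction under all 19 alternatives, with log2 fold changes from -0.84 to -0.71, each within 1 SE (0.17) of the reported value. Since *Adra1b* was picked on these same livers, this is a description only. Leaving out 1 liver at a time gave -0.83 to -0.71, and the replicate block gave -0.77. *Adra1a* moved from -0.33 to -0.16 with the correction for GC content and gene length, with and without the block, a move smaller than its SE of 0.20. *Avpr1a* was negative under 3 of 19 alternatives. No normalization moved the median of all genes by over 0.1. No gene passed the adjusted threshold under any alternative except the DESeq2 test, which called 10 genes, 4 higher and 6 lower, and the cause was not tested. Counts at an unadjusted *P* under 0.05 depended on the setting. For all genes, 1356 of 13856 became 335 with the replicate block and 382 with the block and the correction. The count was 171 of 14602 without LΔRbfox2 livers 3 and 4. Leaving out 1 liver gave 404 of 14307 to 3475 of 14005. For pathway genes, 12 of 141 became 2, 3 and 1 under the same settings, and leaving out 1 liver gave 4 to 25. Without LWT liver 2 the count over all genes was 2531, and without LΔRbfox2 liver 2 the counts were the highest. The cause was not tested. Of the 1356 genes 1102 were higher, against 829 of 1167 with upper-quartile factors and 695 of 1063 with the correction. With the block and the correction 179 of 382 were higher, and without LΔRbfox2 livers 3 and 4 it was 82 of 171. Same-numbered livers had deviations correlated at 0.127, -0.613, 0.122 and -0.514, and the main test did not pair them. Whether they shared a batch or litter cannot be told from these values. Few counts lay behind *Rbfox3*, *Atp2b2* and *Ccl28*, and 67 to 159 a liver behind *Adra1a*. Its SE of 0.20 was no larger than those of *Avpr1a*, *Itpr1* and *Itpr2*, and larger than the 0.17 of *Adra1b* and of *Gcgr*.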
